A study of Mus musculus with 18 samples.

Results

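RNA of wild-type (WT) mouse haematopoietic stem cells that was released from an antibody against N6-methyladenosine was compared, gene by gene, with RNA that the same antibody step left unbound. N6-methyladenosine, written m6A, is a methyl mark on adenosines of messenger RNA. The members are the 6295 of 23038 genes in the deposited tables whose mean was at least 10 RPKM over 6 columns, the m6A-tagged, unbound and input columns of WT and of Mettl3-deficient cells. RPKM is the number of reads per kilobase of gene, scaled to the depth of the library. Each gene's ratio is log2((m6A-tagged RPKM + 1)/(unbound RPKM + 1)), and the words higher and lower are kept for ratios of at least 2-fold on that scale. The choice used the level of a gene and not the ratio, but 188 members would have fallen under the minimum without the WT m6A-tagged and unbound columns. The members nearest to the minimum were Topbp1, Tgtp1 and Tbc1d22b, with means of 10.003, 10.009 and 10.009 RPKM, and the genes next under it were 1700113A16Rik, Cpne8 and Pom121, with means of 9.996, 9.996 and 9.990 RPKM.

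The series has 18 libraries in 6 groups of 3, and 6 libraries stand behind the comparison described here. The m6A-tagged group is the RNA eluted from anti-m6A antibody beads with 20 mM of the free m6A nucleotide, from C57BL/6 mice labelled wild-type. The unbound group is the pooled washes of the same antibody step, and titles give each of its libraries the sample number of an m6A-tagged one. WT input, RNA without antibody, and the 3 fractions of Mettl3-deficient mice, labelled Mx1-cre; Mettl3fl/fl, serve as context. Mx1-cre is a recombinase gene driven by an interferon-responsive promoter and acts in many cell types, blood cells among them. The series' text calls the 3 samples of a group biological replicates. Mice of both genotypes had been given 10 µg of pIpC, an RNA mimic and interferon inducer, on 5 occasions, the last of them 10 days before analysis. Bone marrow cells without lineage markers that carried Sca1, cKit and CD150 but no CD48 were sorted, 3000 for each sample. Polyadenylated RNA of these cells was incubated with 1.25 µg of antibody, and each fraction was amplified by Smart-seq2 and read as pairs of 150 bases. The protocol describes no step that breaks the RNA, so a ratio belongs to the whole transcript and gives no place of a methylated base.

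m6A is written on nascent messenger RNA by a complex whose catalytic subunit is METTL3, with METTL14 as its partner, mostly within a short sequence context near stop codons and in long exons. Reader proteins of the YTH family bind it, and YTHDF2 in particular speeds the decay of the transcripts that carry it. In blood stem cells the mark is known for its part in the turnover of transcripts that drive differentiation, MYC among them. Transcripts of ribosomal proteins are long-lived, compact and known in other cells to carry little of the mark.

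Each column is the authors' mean of 3 libraries, so no member has an error or a test, and the differences below have no replicate check. Depth, worked out from the values, was 30.32 to 34.99 M reads in m6A-tagged, 24.3 to 27.38 M reads in unbound and 28.33 to 37.22 M reads in input libraries of WT cells (M for mega). Of the 9 markers of stem cells, 7 reached 10 RPKM in WT input, with Slamf1, which encodes CD150, at 24.2 RPKM and Kit at 165 RPKM. Cd48, the marker the sort excluded, was at 15.5 RPKM. Of the granulocyte and monocyte markers, 7 were found, 6 reached 10 RPKM in input, and their levels summed to 4504 RPKM in m6A-tagged, 5748 RPKM in unbound and 3992 RPKM in input RNA. Mettl3, the gene targeted in the other genotype, had 17.4 RPKM in m6A-tagged, 11.2 RPKM in unbound and 19.6 RPKM in input RNA of Mettl3-deficient cells, against 36.1, 33.2 and 36.4 RPKM in WT cells. The neutrophil granule gene S100a8 was among the 10 most abundant genes of the 2 fractions. Of 6 endothelial and stromal markers 5 were under 1 RPKM in input. In such bulk samples fewer cells of a type and less RNA per cell cannot be told apart, and the part of these other cells in the ratios was not tested.

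Of the 6295 genes, 1982 (31.5%) were higher in the m6A-tagged fraction, 1218 (19.3%) were lower there and 3095 (49.2%) were within 2-fold. The median ratio was 0.12 on the log2 scale. The 2 tails differed in reach: 1095 genes (17.4%) were 4-fold higher and 196 (3.11%) 4-fold lower, 479 were 8-fold higher and 10 were 8-fold lower, and 131 were 16-fold higher while none was 16-fold lower. The middle 90% of the genes lay between -1.78 and 3.37. Under median-ratio scaling of the columns the median shifted by -0.13, and under upper-quartile scaling by 0.21, and higher genes made up 56.3% and 71.1% of those past 2-fold, against 61.9% with the deposited values.

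The unbound column was spread more widely around input than the m6A-tagged one. Across genes the standard deviation was 0.60 for the log2 ratio of m6A-tagged to input and 1.16 for that of unbound to input. Genes that were higher had medians of 35.7 RPKM in m6A-tagged, 6.74 RPKM in unbound and 24.2 RPKM in input RNA. Of these 1982 genes, 1548 differed 2-fold between unbound and input, while 218 differed 2-fold between m6A-tagged and input. Genes that were lower had medians of 38.8 RPKM in m6A-tagged, 111 RPKM in unbound and 65.7 RPKM in input RNA, and here 266 differed 2-fold between unbound and input and 307 between m6A-tagged and input. Input lay between the 2 fractions for 93.2% of the higher and 97.7% of the lower genes, against 50.7% of the genes within 2-fold.

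**Figure D1:**
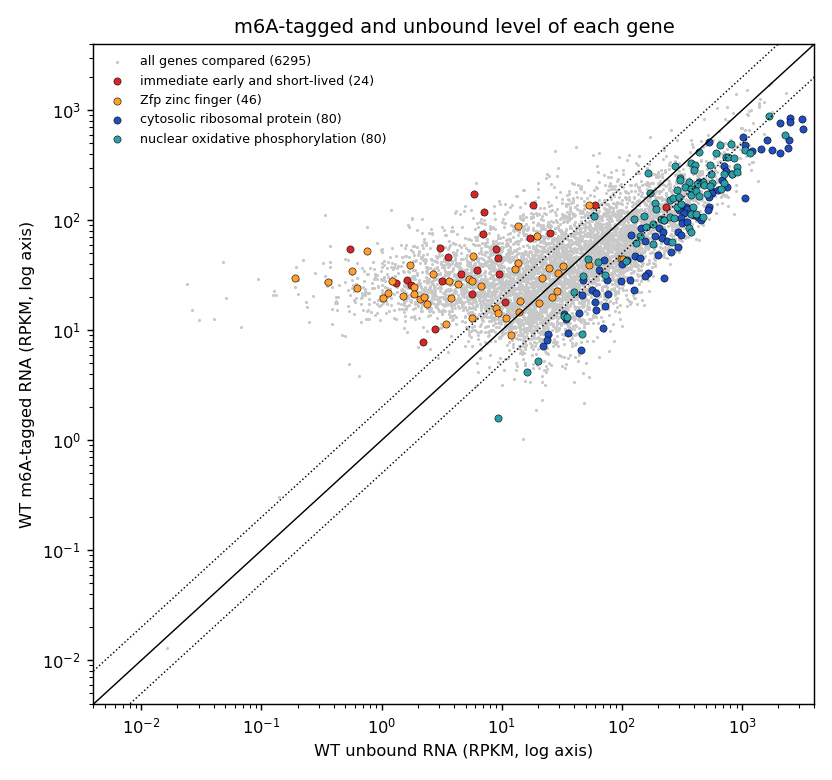
Each point is a gene, with its RPKM in WT unbound RNA on the x axis and in WT m6A-tagged RNA on the y axis, both log axes, with equality as a solid and 2-fold as dotted lines. Grey points spread to the left, where unbound levels go under 1 RPKM for 134 genes, and the 80 cytosolic ribosomal protein genes lie under the solid line.

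The highest ratios rest on transcripts that were almost missing from the unbound fraction. Of the 131 genes that were 16-fold higher, 128 had under 5 RPKM in unbound RNA and 60 under 1 RPKM. Nup62 (gene 18226, chromosome 7, 44816088 to 44831836 in GRCm38), a nuclear pore protein of the central channel, stood at 111 RPKM in m6A-tagged, 0.341 RPKM in unbound and 61.7 RPKM in input RNA. Mrm3, a methyltransferase of mitochondrial ribosomal RNA listed under the older name Rnmtl1, had 42.0 RPKM in m6A-tagged, 0.0477 RPKM in unbound and 22.7 RPKM in input RNA. Rpp38, a protein of ribonuclease P, had 43.5 RPKM in m6A-tagged and 0.222 RPKM in unbound RNA. For these genes the 1 RPKM added sets much of the size of the fold. The other 7 of the top 10, Grwd1, Sertad1, Tmem251, Gna15, Gypc, Jun and Taf5l, had 53.1 to 124 RPKM in m6A-tagged and 0.372 to 1.80 RPKM in unbound RNA.

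Among genes with at least 10 RPKM in unbound RNA, where the added value matters little, the 12 highest were 10.1-fold to 14.9-fold higher. Tuba4a (gene 22145, chromosome 1, 75214972 to 75221261), an alpha tubulin of platelets and other cells, led with 427 RPKM in m6A-tagged, 27.7 RPKM in unbound and 231 RPKM in input RNA. Hspa5, the chaperone BiP of the endoplasmic reticulum, had 463 RPKM in m6A-tagged, 41.7 RPKM in unbound and 342 RPKM in input RNA. Spop and Klhl6, adaptors of Cullin 3 ubiquitin ligases, had 139 and 167 RPKM in m6A-tagged RNA, against 10.7 and 13.1 RPKM in unbound RNA. Sash3, an adaptor of lymphocyte signalling, had 189 RPKM in m6A-tagged and 15.1 RPKM in unbound RNA. The interferon-induced GTPase gene Ifi47 had 168 RPKM in m6A-tagged and 13.4 RPKM in unbound RNA, and Lgals3bp, a secreted glycoprotein also induced by interferon, 264 and 24.0 RPKM in the same order. Tpst2, a tyrosine sulfotransferase, had 189 RPKM in m6A-tagged and 15.2 RPKM in unbound RNA. The mRNA export factor Nxt1, the kinase inhibitor Inka1 (listed as 6230427J02Rik), the ciliary protein B9d2 and the ADP-ribose hydrolase Adprhl2 completed the group, with 119 to 218 RPKM in m6A-tagged and 10.96 to 19.9 RPKM in unbound RNA. In all 12 the input value lay between the 2 fractions and nearer to the m6A-tagged one on the log scale.

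At the other end, the 12 lowest genes with at least 10 RPKM in m6A-tagged RNA were 6.45-fold to 8.56-fold lower. Chchd6 (gene 66098, chromosome 6, 89383146 to 89595652), a protein of the mitochondrial cristae, had 16.9 RPKM in m6A-tagged, 153 RPKM in unbound and 69.5 RPKM in input RNA. Cd81, a tetraspanin of the cell surface, had 114 RPKM in m6A-tagged, 852 RPKM in unbound and 373 RPKM in input RNA. Siva1, an apoptosis factor, had 66.4 RPKM in m6A-tagged and 434 RPKM in unbound RNA. Mad2l2, a subunit of DNA polymerase zeta and of shieldin, had 18.9 RPKM in m6A-tagged and 147 RPKM in unbound RNA. Ergic1, of the compartment between endoplasmic reticulum and Golgi, had 10.9 RPKM in m6A-tagged and 99.7 RPKM in unbound RNA. The palmitoyltransferase Zdhhc4, the tRNA-modifying Yrdc, the pterin dehydratase Pcbd1 and the isomerase Hyi had 12.7 to 22.8 RPKM in m6A-tagged and 96.5 to 167 RPKM in unbound RNA. Hyi is listed as a transcribed pseudogene in the RefSeq annotation used here. The ribosomal protein genes Rpl10 and Rps2 had 29.6 and 160 RPKM in m6A-tagged RNA, against 222 and 1067 RPKM in unbound RNA. Snora70 lies inside Rpl10 in the annotation (chromosome X, 74272492 to 74272620 within 74270816 to 74273135), so its 11.4 RPKM in m6A-tagged and 83.8 RPKM in unbound RNA cannot be told apart from reads of its host.

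**Figure D2:**
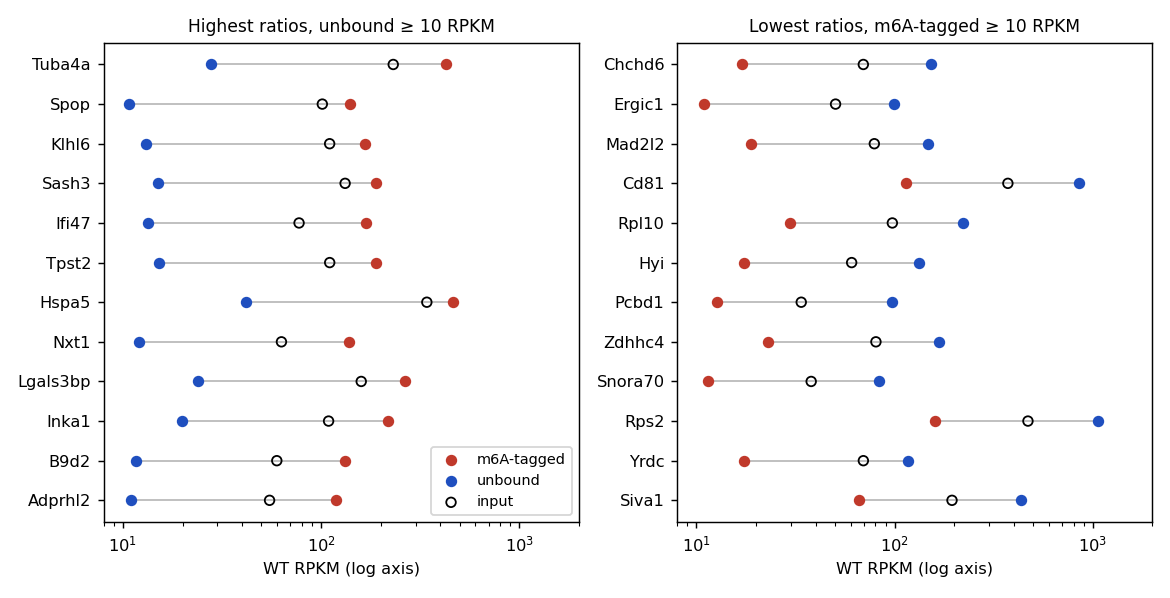
WT RPKM on a log axis in m6A-tagged (red), unbound (blue) and input (open) RNA, each point the authors' mean of 3 libraries. The left panel holds the 12 highest ratios among genes with at least 10 RPKM in unbound RNA, and the right panel the 12 lowest among genes with at least 10 RPKM in m6A-tagged RNA. Input lies between the other fractions in all 24 genes.

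The 10 lowest ratios without that minimum included genes scarce in the m6A-tagged fraction. Lmo1, a LIM-domain transcription cofactor, had 2.17 RPKM in m6A-tagged, 48.3 RPKM in unbound and 17.2 RPKM in input RNA. Atp6v1h, a subunit of the vacuolar proton pump, had 6.50 RPKM in m6A-tagged and 77.8 RPKM in unbound RNA, and Retsat, a retinol saturase, 7.97 and 85.6 RPKM in the same order. The others, Ccdc61, Immp2l, Cenpv, Kctd13 and Tmem101, had 3.37 to 5.74 RPKM in m6A-tagged and 39.6 to 64.4 RPKM in unbound RNA, beside Chchd6 and Ergic1. The genes nearest to the 2-fold limit were Hgsnat, Grb2 and Cutc just inside and Tex264, F8a and Mms22l just outside on the higher side, with Nprl3, Syce2 and Smim7 just inside and Ndufb9, Cuta and Lbr just outside on the lower side.

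The 10 most abundant genes of the 2 fractions were not spread evenly between them. Rpl8 had 827 RPKM in m6A-tagged, 3128 RPKM in unbound and 1693 RPKM in input RNA. Rpl4, Rpl32, Rplp0, Rack1 and Cox4i1, a subunit of cytochrome c oxidase, were likewise 2.99-fold to 5.37-fold lower in m6A-tagged RNA. The elongation factor gene Eef1a1 had 1419 RPKM in m6A-tagged and 2323 RPKM in unbound RNA, a 1.64-fold difference. B2m, the light chain of MHC class I, stood at 1752 RPKM in m6A-tagged and 1749 RPKM in unbound RNA, and S100a8 at 1683 and 1659 RPKM. Among genes of this abundance, then, were ratios near 0 as well as ratios under -2.

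The median ratio mostly fell as the level of the genes rose. When genes were cut into 10 level groups of equal size by their mean, the lowest group had a median ratio of 1.01, with 50.2% of its 630 genes higher and 6.98% lower. The top group had a median of -0.88, with 6.03% of 630 genes higher and 44.0% lower. The unbound median went with this, at 6.88 RPKM in the lowest and 356 RPKM in the top group, while the m6A-tagged median was 15.2 RPKM and 202 RPKM. When genes were ordered by Mettl3-deficient input, which shares no library with either WT fraction, the medians were 0.30 in the lowest group, 0.78 in the next and -0.71 in the top group. Many medians of gene lists below are therefore given also after the median of each gene's own level group was taken off, as a level-centred median.

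**Figure D3:**
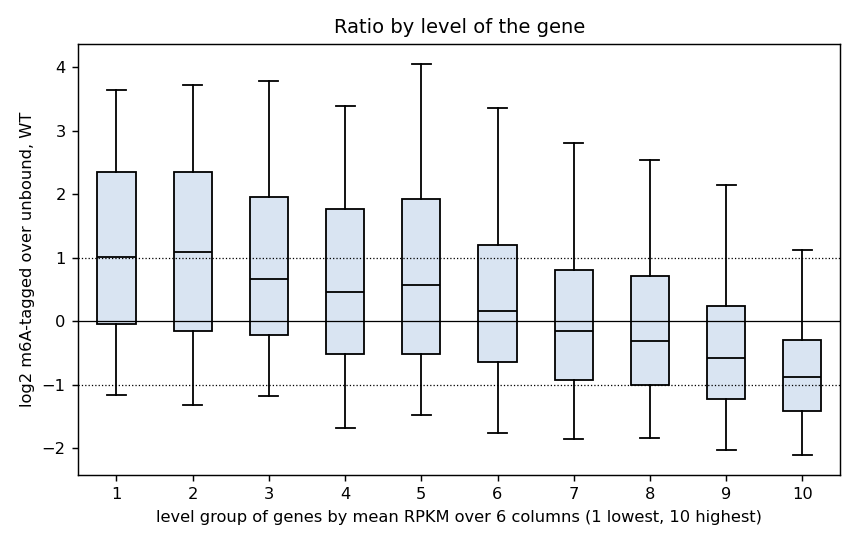
The WT log2 ratio of m6A-tagged to unbound RNA for the 10 level groups of the 6295 genes by mean RPKM, from the lowest (1) to the highest (10). Boxes span the quartiles, with the median as a line, and whiskers the 5th to 95th percentile over genes. Medians run from about 1 in the first 2 groups to -0.88 in the last.

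Genes of immediate early and short-lived transcripts stood at the m6A-tagged end. Of 24 that were compared, of 51 in the tables, 22 were higher, none was lower, and the median was 2.54, or 2.25 level-centred. Myc (gene 17869, chromosome 15, 61985341 to 61990361), a transcription factor of growth, had 174 RPKM in m6A-tagged, 5.82 RPKM in unbound and 117 RPKM in input RNA. Jun, a subunit of AP-1, had 54.7 RPKM in m6A-tagged and 0.541 RPKM in unbound RNA, and its partner Fos 69.4 and 17.3 RPKM. Zfp36l2, which binds AU-rich elements and promotes decay, had 119 RPKM in m6A-tagged and 7.07 RPKM in unbound RNA. Gadd45g, a stress response gene, had 55.7 RPKM in m6A-tagged and 3.08 RPKM in unbound RNA. Pim1, a kinase, was within 2-fold at 18.2 RPKM in m6A-tagged and 10.7 RPKM in unbound RNA. Nfkbia, the inhibitor of NF-kappa-B, was the one gene with a ratio under 0, at 131 RPKM in m6A-tagged and 232 RPKM in unbound RNA. The feedback inhibitors of cytokine and kinase signalling, 9 SOCS and DUSP genes of which 6 belong to the previous list, had 7 members higher and none lower. Dusp6, a phosphatase of ERK, had 28.6 RPKM in m6A-tagged and 1.64 RPKM in unbound RNA, and Socs2 25.8 and 1.75 RPKM.

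Zinc finger genes and transcription factors of stem cells were counted in 3 lists. Of 46 Zfp zinc finger genes 30 were higher and 2 lower, with a median of 1.98 and a level-centred median of 1.10, but a median of 0.12 among those with a mean of at least 50 RPKM, and 307 further Zfp genes of the tables lay under the minimum. Zfp24, listed as Zfp191, had 52.6 RPKM in m6A-tagged and 0.7503 RPKM in unbound RNA, and Zfp956 29.9 and 0.190 RPKM. Zfp706 and Zfp414 were the lower ones, with 44.6 and 44.4 RPKM in m6A-tagged RNA, against 97.5 and 103 RPKM in unbound RNA, and neither was lower under upper-quartile scaling. All 5 Zbtb genes compared were higher, with a median of 3.38 and a level-centred median of 2.37. Their median level in unbound RNA was 0.642 RPKM, so the size of that median rests largely on the 1 RPKM added. It rose by over 1.5-fold with 0.1 RPKM added and fell by over 1.5-fold with 5 RPKM added. A further 34 Zbtb genes of the tables lay under the minimum, and without a minimum the median was 1.72. Of 21 transcription factors of stem and progenitor cells 17 were higher and none lower, with a median of 2.26 and a level-centred median of 1.88, or a median of 1.37 among those with a mean of at least 50 RPKM. Erg, an ETS factor needed for stem cell maintenance, had 46.6 RPKM in m6A-tagged and 1.48 RPKM in unbound RNA. Mycn had 94.5 RPKM in m6A-tagged and 6.87 RPKM in unbound RNA, Gata2 170 and 34.7 RPKM, and Meis1 86.8 and 16.5 RPKM. Myb, a factor of progenitor growth, was within 2-fold on the other side, at 66.4 RPKM in m6A-tagged and 92.4 RPKM in unbound RNA, and Lmo2, Gfi1b and Hoxa9 were within 2-fold as well.

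Of 21 surface and signalling genes of stem cells, 8 were higher (38.1%) and 3 lower (14.3%), beside 31.5% and 19.3% of all genes compared. Their median was 0.39 and their level-centred median 0.46. Slamf1 (gene 27218, chromosome 1, 171767131 to 171801184), the gene of the CD150 used in the sort, had 42.9 RPKM in m6A-tagged, 3.35 RPKM in unbound and 24.2 RPKM in input RNA. Angpt1, a ligand of the receptor Tie2, had 88.2 RPKM in m6A-tagged and 7.97 RPKM in unbound RNA. Eng, a co-receptor of the TGF-beta family, had 313 RPKM in m6A-tagged and 62.2 RPKM in unbound RNA, and Cd27 185 and 36.5 RPKM. The tetraspanins Cd81 and Cd9 were among the lower ones, Cd9 with 238 RPKM in m6A-tagged and 613 RPKM in unbound RNA. Kit had 122 RPKM in m6A-tagged, 138 RPKM in unbound and 165 RPKM in input RNA, and Ly6a, which encodes Sca1, 124, 195 and 118 RPKM in the same order, so neither reached 2-fold.

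The machinery of m6A was itself unevenly spread. Of 10 writers, erasers and readers compared, of 25 in the tables, 6 were higher and none lower, with a median of 2.19 and a level-centred median of 1.48, but a median of -0.16 among those with a mean of at least 50 RPKM. The readers Ythdf2, Ythdf3, Ythdf1 and Ythdc1 were 6.74-fold to 14.9-fold higher, Ythdf2 with 49.4 RPKM in m6A-tagged, 2.38 RPKM in unbound and 32.4 RPKM in input RNA. Mettl16, which methylates U6 RNA, had 30.7 RPKM in m6A-tagged and 8.31 RPKM in unbound RNA. Mettl3 had 36.1 RPKM in m6A-tagged, 33.2 RPKM in unbound and 36.4 RPKM in input RNA, a ratio of 0.12. Mettl14 was under the minimum, with 15.2 RPKM in m6A-tagged, 10.5 RPKM in unbound and 9.66 RPKM in input RNA. Of 14 transcripts reported in blood cells as m6A targets, a list that shares Myc, Egr1, Cish and Socs1 with the immediate early genes, 8 were higher and none lower. Kit, Stat5a, Stat5b and Myb were those with ratios under 0, from -0.73 to -0.19.

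A list of genes whose coding sequence lies in a single exon was also counted. Of 12 compared, 11 were higher, none was lower, and the median was 3.14, or 3.18 level-centred. Besides Jun, Junb, Ier2, Cebpb and Socs1, which are also immediate early genes, they were Sertad1, Rpp38, Sox4, Arf6, Kti12, H1f0 and H1f10. Sox4, a transcription factor, had 38.2 RPKM in m6A-tagged and 1.46 RPKM in unbound RNA. Arf6, a GTPase of endosome traffic, had 40.9 RPKM in m6A-tagged and 2.30 RPKM in unbound RNA, and Kti12, of tRNA modification, 93.8 and 10.6 RPKM. The linker histone gene H1f10 was the exception, at 27.5 RPKM in m6A-tagged and 21.4 RPKM in unbound RNA. The list was drawn from textbook knowledge of these genes, but with earlier results of these data known, and 13 others of it lay under the minimum. Its members Sertad1, Rpp38 and Jun are also among the highest ratios named above, so its counts and median are no independent comparison. The list does not hold every gene of that kind, so its counts cannot stand for all such genes. Of 15 histone genes, which share H1f0 and H1f10 with it, 3 were higher and 4 lower, with a median of 0.02 and a level-centred median of -0.26.

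**Figure D4:**
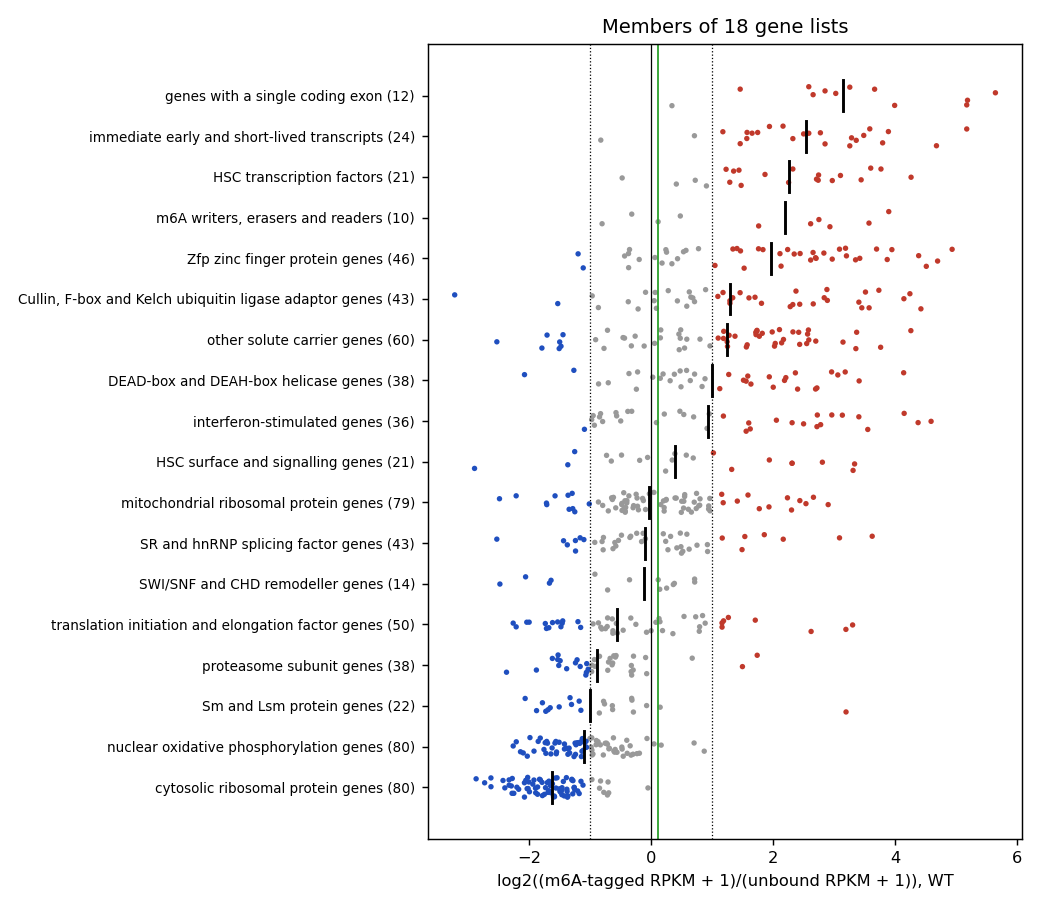
The WT log2 ratio of m6A-tagged to unbound RNA for each member of 18 gene lists, with the number compared in brackets. Red points are at least 2-fold higher, blue points at least 2-fold lower, black bars are list medians, the green line is the median of all genes (0.12) and dotted lines mark 2-fold. Lists run from single-coding-exon genes with a median of 3.14 at the top to cytosolic ribosomal protein genes with -1.63 at the bottom.

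Ribosomal protein genes stood at the unbound end. All 80 had ratios under 0, or 79 under upper-quartile scaling, where Rpl29 passed to the other side, and 72 were lower, with a median of -1.63 and a level-centred median of -1.08. Median levels over the list were 78.4 RPKM in m6A-tagged, 273 RPKM in unbound and 134 RPKM in input RNA. Ratios ran from -2.87 for Rpl10 to -0.05 for Rpl29, which had 510 RPKM in m6A-tagged and 528 RPKM in unbound RNA. Within the top level group, 35 of 39 ribosomal protein genes and 242 of 591 other genes were lower, with medians of -1.67 and -0.81. Many ribosomal protein genes have processed copies in the genome, and how reads shared with them were counted is not given in the sources used here, so values such as 6.56 RPKM in m6A-tagged and 45.5 RPKM in unbound RNA for Rps16 are uncertain as levels.

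Messenger RNAs of ribosomal proteins are known to begin with a run of pyrimidines, the 5′ terminal oligopyrimidine motif, through which their translation is controlled. The bases around the RefSeq start are shown for 7 of them because the start is the best known feature these transcripts share. Each line runs 5′ to 3′ on the gene's strand, from 10 bases before the start to 15 bases from it on, with the letters CTTTC in capitals where they occur first.
Rack1: gccgctCTTTCtttttctccacagg
Rplp2: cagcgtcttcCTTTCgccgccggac
Rpl38: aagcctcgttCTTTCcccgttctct
Rpl7a: ctcttCTTTCtttctccagcagccg
Rps10: gcgcacgccccttcCTTTCcagcct
Rpl35a: gcttgccttcctCTTTCcgccatct
Rpl15: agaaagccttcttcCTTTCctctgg
The sequences are RefSeq's for GRCm38.p6, at chr11:48800350-48800374 (plus strand), chr7:141447641-141447665 (plus), chr11:114668570-114668594 (plus), chr2:26910797-26910821 (plus), chr17:27635230-27635254 (minus), chr16:33056472-33056496 (plus) and chr14:18270972-18270996 (minus) in the order of the lines. Searched on the gene's strand alone, CTTTC was in this window for 16 of 59 ribosomal protein genes with a RefSeq promoter (27.1%), for 160 of 5041 other compared genes (3.17%) and in 3.10% of all 32851 promoter windows of the RefSeq table. The 7 genes shown are examples chosen after their values were seen and were lower by 2.71-fold to 4.88-fold, Rplp2 with 99.6 RPKM in m6A-tagged and 451 RPKM in unbound RNA and Rpl35a with 51.6 and 256 RPKM. Over all 16 with the letters the ratios ran from -2.39 for Rpl27a to -0.70 for Rpl12, which was within 2-fold. Ribosomal protein genes with the letters had a median ratio of -1.78 and those without -1.58. Among the other genes the medians were -0.14 with the letters and 0.14 without, and 23.8% and 18.2% were lower.

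Several other housekeeping groups were counted. Of 80 nuclear genes of oxidative phosphorylation 44 were lower and none higher, with a median of -1.10, but a level-centred median of -0.34. Ndufa6, of complex I, had 77.7 RPKM in m6A-tagged and 376 RPKM in unbound RNA, and Cox7a2, of complex IV, 108 and 477 RPKM. Of 22 Sm and Lsm genes, which encode rings that bind small nuclear RNAs or decaying mRNA, 11 were lower, with medians of -0.997 and, level-centred, -0.84. Snrpb had 423 RPKM in m6A-tagged and 1399 RPKM in unbound RNA, whereas Lsm10, of the U7 particle, had 72.2 and 6.98 RPKM and was the one higher member. Of 38 proteasome genes 15 were lower, or 9 under upper-quartile scaling, and 2 higher, with a median of -0.88 and a level-centred median of -0.11. The 20S subunit Psma7 had 337 RPKM in m6A-tagged and 1241 RPKM in unbound RNA, and the regulatory subunits Psmd5 and Psmd7, the higher ones, had 126 and 288 RPKM in m6A-tagged RNA, against 37.0 and 101 RPKM in unbound RNA. All 14 genes of the CCT chaperonin and prefoldin had ratios under 0, or 12 under upper-quartile scaling, and 4 were lower. The 79 mitochondrial ribosomal protein genes had 12 higher, or 18 under upper-quartile scaling, 11 lower and a median of -0.03 that became 0.32 level-centred. RNA polymerase subunit genes had 5 of 22 higher (22.7%) and 4 lower (18.2%), beside 31.5% and 19.3% of all genes compared. Their median was 0.41, or 0.04 level-centred, but -0.81 among those with a mean of at least 50 RPKM. Mrps7 had 182 RPKM in m6A-tagged and 30.5 RPKM in unbound RNA, and Mrpl21 21.1 and 122.6 RPKM.

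Several families held members on either side, as did all genes compared, with 31.5% higher and 19.3% lower. Of 50 translation factors 8 were higher and 14 lower. The large scaffolds Eif3a and Eif4g1 had 73.3 and 76.8 RPKM in m6A-tagged RNA, against 6.52 and 11.6 RPKM in unbound RNA, and the smaller subunits Eif3f and Eif3k 184 and 108 RPKM in m6A-tagged RNA, against 886 and 433 RPKM in unbound RNA. Among 18 glycolysis genes 4 were higher, the transporters Slc16a1, Slc2a1 and Slc2a3 and the hexokinase Hk1, and 6 lower, or 11 under median-ratio scaling. The glucose transporter Slc2a1 had 42.3 RPKM in m6A-tagged and 7.62 RPKM in unbound RNA, while Ldha, lactate dehydrogenase, had 225 and 1353 RPKM and Aldoa, aldolase, 387 and 1069 RPKM. Among 34 chaperones the stress-inducible Dnajb1 had 81.5 RPKM in m6A-tagged and 3.32 RPKM in unbound RNA, and Dnajb9 of the endoplasmic reticulum 35.3 and 2.67 RPKM. The prolyl isomerase Ppib had 209 RPKM in m6A-tagged and 888 RPKM in unbound RNA. Of 43 SR and hnRNP genes 7 were higher and 7 lower. Srrm2, a large scaffold of nuclear speckles, had 56.6 RPKM in m6A-tagged and 3.66 RPKM in unbound RNA, and U2af1, which reads the 3′ splice site, 4.73 and 32.0 RPKM. Of 18 nuclear pore genes 3 were higher, Nup62, Nup50 and Tpr, and 6 lower, with Nup43 at 10.6 RPKM in m6A-tagged and 48.6 RPKM in unbound RNA. The tubulin list held Tuba4a beside Tuba1b, an alpha tubulin with 242 RPKM in m6A-tagged and 567 RPKM in unbound RNA.

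Several groups of regulatory enzymes had positive medians. Of 38 DEAD-box and DEAH-box helicases 19 were higher and 2 lower, with a median of 1.01 and a level-centred median of 0.73, or a median of 0.09 among those with a mean of at least 50 RPKM. Dhx8, which releases mRNA from the spliceosome, had 39.6 RPKM in m6A-tagged and 1.30 RPKM in unbound RNA, and Ddx1 60.6 and 258 RPKM. Of 43 Cullin, F-box and Kelch genes 25 were higher and 2 lower, with a median of 1.29 and a level-centred median of 0.69. Cul1, the scaffold of SCF ligases, had 95.2 RPKM in m6A-tagged and 6.22 RPKM in unbound RNA, and Fbxo5, an inhibitor of the anaphase-promoting complex, 62.4 and 2.34 RPKM. Of 18 ubiquitin-specific proteases 8 were higher and 1 lower, with a median of 0.53 but a level-centred median of 0.19. Usp10 among them had 59.2 RPKM in m6A-tagged and 1.59 RPKM in unbound RNA. Solute carriers of the cell surface and organelles other than mitochondria had 34 of 60 higher and 7 lower, with a median of 1.25 and a level-centred median of 0.67, or a median of 0.48 with a mean of at least 50 RPKM. The 21 mitochondrial carriers of the SLC25 family had 7 higher (33.3%) and 6 lower (28.6%), beside 31.5% and 19.3% of all genes compared. That split of the solute carriers was made after the values were seen. Of 16 histone methyltransferases and demethylases 9 were higher and 2 lower, with a median of 1.35, a level-centred median of 0.54 and a median of -0.76 among those with a mean of at least 50 RPKM. Of 14 SWI/SNF and CHD remodellers none was higher and 4 were lower, among them Dpf2 with 14.99 RPKM in m6A-tagged and 87.9 RPKM in unbound RNA.

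Growth, survival and signalling genes were spread over both sides, beside 31.5% higher and 19.3% lower over all genes compared. Of 12 targets of p53 that were compared 7 were higher and 1 lower, with a median of 1.75, a level-centred median of 0.97 and a median of -0.71 among those with a mean of at least 50 RPKM. Mdm2, the ligase that turns p53 over, had 29.3 RPKM in m6A-tagged and 2.83 RPKM in unbound RNA, and Ppm1d, a phosphatase of the same feedback loop, 19.6 and 0.607 RPKM. Trp53 itself was just within 2-fold, at 175 RPKM in m6A-tagged and 348 RPKM in unbound RNA, and was lower under median-ratio scaling. Of 9 BCL2 family genes 3 were higher (33.3%), the pro-apoptotic Bid and the protective Mcl1 and Bcl2l1. Bid had 87.0 RPKM in m6A-tagged and 4.70 RPKM in unbound RNA, and Mcl1 27.8 and 3.20 RPKM. None of the other 6 was past 2-fold, Bax among them with 118 RPKM in m6A-tagged and 158 RPKM in unbound RNA. Of 25 JAK-STAT and cytokine receptor genes 10 were higher and 3 lower. The receptor genes Ifngr1 and Tnfrsf1b had 105 and 29.5 RPKM in m6A-tagged RNA, against 14.2 and 0.913 RPKM in unbound RNA, while the kinase gene Jak3 had 28.96 RPKM in m6A-tagged and 91.8 RPKM in unbound RNA. Among 51 MYC targets of ribosome production 18 were higher (35.3%) and 10 lower (19.6%), close to the shares over all genes. Rrs1, a factor of ribosome assembly, had 42.3 RPKM in m6A-tagged and 1.81 RPKM in unbound RNA, and the spermidine synthase gene Srm 174 and 695 RPKM. Of 53 Rab, Arf and other small GTPase genes 16 were higher (30.2%) and 18 lower (34.0%). Rab20 had 20.1 RPKM in m6A-tagged and 0.418 RPKM in unbound RNA, and Rhoa, a regulator of actin, 70.4 and 302 RPKM. Lysosome and proton pump genes had 3 of 33 higher and 11 lower, and actin cytoskeleton genes 5 of 40 higher and 15 lower, or 8 lower under upper-quartile scaling.

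Interferon-stimulated genes were measured in mice that had received an interferon inducer. Of 36 compared, 17 were higher and 1 lower, with a median of 0.94 and a level-centred median of 0.90, but a median of -0.38 among those with a mean of at least 50 RPKM. The GTPase genes Gbp7 and Irgm1 had 31.3 and 64.4 RPKM in m6A-tagged RNA, against 0.341 and 2.68 RPKM in unbound RNA. Rtp4, a chaperone of receptors, had 58.9 RPKM in m6A-tagged and 1.88 RPKM in unbound RNA, and Oasl2 52.5 and 6.78 RPKM. The small membrane proteins Ifitm3, Ifitm1 and Ifitm2 had 462 to 693 RPKM in m6A-tagged and 802 to 977 RPKM in unbound RNA, none of them past 2-fold. Ifi35 was the lower gene, with 54.7 RPKM in m6A-tagged and 118 RPKM in unbound RNA. Lower genes of the list numbered 4 under median-ratio scaling and none under upper-quartile scaling. Of 16 genes of MHC class I and antigen presentation 13 were within 2-fold, beside 49.2% of all genes compared. H2-K1 was one of the 13, with 1414 RPKM in m6A-tagged and 892 RPKM in unbound RNA.

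Lineage genes were found on either side. Of 12 megakaryocyte and platelet genes 7 were higher and 2 lower. Mmrn1, multimerin, had 91.0 RPKM in m6A-tagged and 1.66 RPKM in unbound RNA, and Pf4, platelet factor 4, 310 and 773 RPKM. Of 18 erythroid genes 2 were higher, 4 lower and 12 within 2-fold, with a median of -0.32, the factor genes Klf1 with 47.3 RPKM in m6A-tagged and 9.02 RPKM in unbound RNA and Gata1 with 22.6 and 86.9 RPKM among those past it. Of 22 granulocyte and monocyte genes 17 were within 2-fold, beside 49.2% of all genes compared, 4 were lower and 1 higher. The higher one was the receptor gene Csf3r with 42.9 RPKM in m6A-tagged and 13.4 RPKM in unbound RNA. The granule protease gene Elane had 421 RPKM in m6A-tagged and 1097 RPKM in unbound RNA. Of 49 replication and mitosis genes 30 were within 2-fold, 10 higher (20.4%) and 9 lower (18.4%). Over all genes compared, 49.2% were within 2-fold, 31.5% higher and 19.3% lower. The flap endonuclease Fen1 had 77.7 RPKM in m6A-tagged and 6.55 RPKM in unbound RNA, and the clamp loader subunit Rfc4 52.6 and 278 RPKM. Cdk4, a kinase of G1, had 284 RPKM in m6A-tagged and 1186 RPKM in unbound RNA.

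The same ratio was formed in Mettl3-deficient cells from other libraries. There 2122 genes (33.7%) were higher in the m6A-tagged fraction and 1061 (16.9%) lower. Of the 1982 genes higher in WT, 58.3% were also higher in Mettl3-deficient cells, and these make up 54.5% of the genes higher there. Of the 1218 genes lower in WT, 47.6% were also lower in Mettl3-deficient cells, or 54.7% of the genes lower there. Opposite calls were made for 39 of the genes higher and 85 of the genes lower in WT. Across the 6295 genes Pearson's r of the 2 ratios was 0.56 and Spearman's rho 0.58, a description across genes that share their lengths, their levels and the way of counting and are not independent. Medians of the lists differed between genotypes in either direction. The single-coding-exon genes had 3.14 in WT and 1.15 in Mettl3-deficient cells, the immediate early genes 2.54 and 1.35, and Zfp genes 1.98 and 1.35. Cytosolic ribosomal protein genes had -1.63 in WT and -2.29 in Mettl3-deficient cells, and mitochondrial ribosomal protein genes -0.03 and -0.83. SWI/SNF and CHD genes had -0.12 in WT and 1.65 in Mettl3-deficient cells, with Smarca2 at 0.72 and 3.79, and DEAD-box and DEAH-box genes 1.01 and 2.15. The difference between genotypes has no test, since each column is 1 value. The lists were chosen with earlier results of these data known, so their shift between genotypes is no independent comparison. Depth also differed, with 12.24 to 27.27 M reads in unbound and 25.89 to 33.59 M reads in m6A-tagged libraries of Mettl3-deficient cells, and its part was not tested.

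Genomic span, the length from the first to the last base of a gene with its introns, was set beside the ratio in both genotypes. Of 163 genes up to 1500 bases long 24.5% were higher in WT and 10.4% in Mettl3-deficient cells. Of 302 genes over 100000 bases 35.8% were higher in WT and 57.3% in Mettl3-deficient cells. Lower genes made up 25.8% of the shortest and 16.2% of the longest genes in WT, against 44.2% and 4.64% in Mettl3-deficient cells. The WT shares between these ends were not in order, with 31.9% higher for spans of 1500 to 3000 bases and 37.9% for 50000 to 100000 bases. WT level-centred medians were -0.16 for the shortest and -0.11 for the longest genes. Spans are of the RefSeq annotation, and the length of the spliced transcripts was not used here.

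Single libraries could be seen for genes of low level outside the compared set. There the whole numbers of reads behind a mean could be worked out where a Mettl3-deficient column had no reads and so gave the length of the gene. For 1041 such genes with at least 20 reads over the 6 WT libraries, all 3 m6A-tagged libraries lay above all 3 unbound libraries in depth-scaled reads for 54 (5.19%), and below for 20 (1.92%). With a library left out separation is easier to reach, so these counts can only stay or grow. Without m6A-tagged library 1 or 3 in order of depth the higher count was 137 or 99. Without m6A-tagged library 2 the lower count was 34, and without unbound library 1, 2 or 3 it was 48, 53 or 39. The minimum of 20 reads was taken over the same 6 libraries, so 365 genes without unbound reads passed through the m6A-tagged fraction alone, and 212 without m6A-tagged reads through the unbound fraction alone. The counts are given as a description and nothing is read from them. The libraries worked out here carry no sample number, so they could not be paired, and no gene was tested. Detection was patchy: 517 of the 1041 had reads in 1 of the 3 m6A-tagged libraries, 107 in all 3, and 88 in all 3 unbound libraries. Libraries are named in order of depth, which is not the replicate number. Trim56, an antiviral ubiquitin ligase, had 147, 294 and 183 reads in the m6A-tagged libraries, against 3, 1 and 1 in the unbound ones, 98.8-fold more at equal depth. Klf8, a Krüppel-like factor, had 399, 193 and 311 reads in m6A-tagged, against 0, 2 and 0 in unbound libraries, and Prox2 280, 186 and 279, against none in the 3 unbound libraries, at least 197-fold higher with the floor at 3 reads over the group. Kat6b, a histone acetyltransferase listed as Myst4, had 143, 530 and 182 reads in m6A-tagged, against 4, 3 and 25 in unbound libraries. In the other direction C7, a complement protein, had no reads in the 3 m6A-tagged libraries, against 150, 218 and 223 in the unbound ones, at least 249-fold lower. Map4k3, a kinase of nutrient signalling, likewise had none in m6A-tagged libraries, against 67, 251 and 170 in unbound ones. These genes were chosen for their full separation, so the side of a library is no finding.

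**Figure D5:**
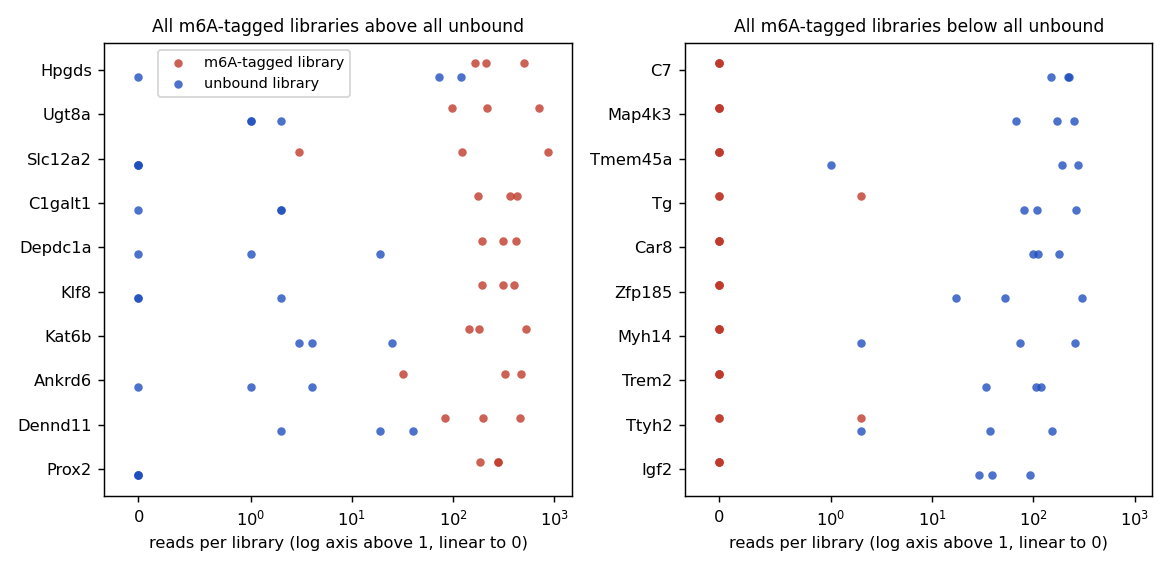
Reads in each of the 3 WT m6A-tagged (red) and 3 WT unbound (blue) libraries, on an axis that is log above 1 and linear down to 0, for the 10 low genes with the most reads in either direction of full separation. Red and blue libraries of a gene do not overlap once scaled to depth, by choice of the genes, and the points of 1 fraction are often far apart, as for Slc12a2 with 122, 865 and 3 reads in m6A-tagged RNA.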

How the data were processed

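RNA of antibody-eluted, wash and input fractions was sequenced in 3 libraries each of 2 genotypes. The authors deposited RPKM values, with a single column for a fraction and a separate table for each genotype. The genome build was mm10, and the notes list Picard and edgeR without saying for what, per the submitters' processing notes. No aligner or counting rule is named in the labels. From the spacing of low values, each deposited column averages 3 libraries after adding 1 read to every gene. Joining used gene IDs, and ratios were taken for genes averaging 10 RPKM or more across the 6 columns, after adding 1 RPKM. The planned tests over libraries needed a value per library and could not be run, so 2-fold is the limit and no member has a p-value. Names, spans and promoters came from RefSeq (GRCm38.p6), which held 6288 of the 6295 gene IDs.

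Members and the 51 gene lists were chosen with earlier results of these data known, and some list memberships were corrected by name after values were seen. Named genes are the 10 highest and lowest ratios, the 12 highest and lowest with at least 10 RPKM in the smaller fraction, the 10 most abundant, those at the 2-fold limit, the 4 highest and 4 lowest of each list and a set of marker genes. Some genes that this rule names are not reported here. Other genes named are examples chosen after their values were seen. Depths and reads of single low genes were solved from the whole-number structure of the values (86.7% of 6087 values with reads had exactly 1 solution). On simulated data the solving of reads was tested with the depths supplied, and the working out of depths was not tested. Counts and floors cover counting error only. Python 3 with pandas and numba was used.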

Additional observations from a re-analysis of the deposited data

How the results depend on the processing

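Adding 0.1 or 5 RPKM, median-ratio and upper-quartile scaling kept both WT counts within 1.5 times of the 1982 higher and 1218 lower genes. Of 336 named genes past 2-fold, 336 stayed past it with 0.1 RPKM added, 325 with 5 RPKM, 331 with the columns scaled by median ratios and 319 with upper quartiles, and none changed direction, but of all 426 named 39 ratios moved over 1.5-fold with 0.1 RPKM and 104 with 5 RPKM. The minimum level mattered more. Without a minimum 6.94% of 23038 genes were lower in WT, and 22.2% higher and 5.46% lower in Mettl3-deficient cells. With a minimum mean of 50 RPKM, 14.9% were higher and 31.8% lower in WT, and 16.6% higher and 31.2% lower in Mettl3-deficient cells. At 4-fold 1095 were higher and 196 lower in WT, and 866 higher and 257 lower in Mettl3-deficient cells. The median of the lowest level group was -0.15 with the minimum at 50 RPKM and 0.30 by Mettl3-deficient input. List medians past 2-fold changed sign with that minimum for m6A writers, erasers and readers (-0.16), histone methyltransferases and demethylases (-0.76) and p53 targets (-0.71), and without a minimum for other solute carriers (-0.0023), lymphoid genes (-0.0075) and endothelial and stromal genes (-0.0013). The smaller median of interferon-stimulated genes was -0.38 with the minimum at 50 RPKM. Over all lists, the 50 RPKM minimum left 49 with members, of which 15 had a median of the other sign and 17 moved over 1.5-fold beside the 3 named, while level-centring moved 15 of 51 and gave 10 the other sign. The cause of these moves was not tested. No paired analysis was possible because each fraction has 1 pooled column and the libraries worked out for low genes carry no sample number. Leaving out 1 library at a time, low genes with all m6A-tagged libraries higher numbered 54 with all libraries and 60 to 137 otherwise, and those lower 20 and 26 to 53, with separation easier to reach among fewer libraries. The alternatives on level groups by Mettl3-deficient input, level-centring and low genes were chosen after seeing the data.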

Other observations

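Chromosome X stood apart from the autosomes in the WT ratio, a pattern noticed after the values were seen and given as a description. Its 166 compared genes had a median of -0.38, against 0.14 over 6120 autosomal genes, and 17.5% were higher and 26.5% lower, against 31.9% and 19.2% on autosomes. The medians of the 19 autosomes, with 141 to 569 genes each, ran from -0.22 to 0.35, and their shares of higher genes from 26.5% to 35.9%. The share of lower genes did not set chromosome X apart, since 26.1% were lower on chromosome 15. Level-centred, the median was -0.50 on chromosome X and from -0.18 to 0.17 on single autosomes, and in 9 of 10 level groups the X median lay under the autosomal one. In Mettl3-deficient cells 33.1% of X-linked and 33.7% of autosomal genes were higher and 21.1% and 16.7% lower, with medians of 0.15 and 0.33. Single autosomes had medians of 0.17 to 0.56 there, so the X median was close to the lowest of them, that of chromosome 7. On chromosome 7, 21.2% were lower in Mettl3-deficient cells, so chromosome X did not stand apart in that genotype. Of the X-linked genes, Renbp, which binds renin, had 9.95 RPKM in m6A-tagged and 79.2 RPKM in unbound RNA, Hsd17b10, a mitochondrial dehydrogenase, 144 and 686 RPKM, and Rps4x 533 and 1615 RPKM. Sash3 had 189 RPKM in m6A-tagged and 15.1 RPKM in unbound RNA, and Gemin8, of the SMN complex, 24.6 and 1.35 RPKM. Tmsb4x, a thymosin that binds actin, was within 2-fold at 1064 RPKM in m6A-tagged and 753 RPKM in unbound RNA.

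The 81 long noncoding RNA genes compared had 16 members higher (19.8%) and 21 lower (25.9%), beside 31.5% and 19.3% of all genes compared. Neat1, the scaffold of paraspeckles, had 42.7 RPKM in m6A-tagged and 6.31 RPKM in unbound RNA. Of 22 small nucleolar RNA genes 3 were higher (13.6%) and 8 lower (36.4%). Snord88a had 54.7 RPKM in m6A-tagged and 3.60 RPKM in unbound RNA, and Snord95 163 and 763 RPKM. Such genes mostly lie inside longer host transcripts, whose reads cannot be told apart from theirs in these tables.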
